A study of Drosophila melanogaster with 3 samples.

Results

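The Rab genes of Drosophila melanogaster were taken as the protein-coding genes of the Ensembl BDGP6 annotation whose symbol is Rab or RabX followed by a digit, and they were examined for sites occupied by Ultraspiracle (USP). The rule gave 33 genes of the 13945 protein-coding genes on the chromosome arms that held peaks. They were divided into 9 secretory members (endoplasmic reticulum, Golgi and exocytosis), 8 endosomal members (endosomes, recycling and lysosome) and 16 others. The others were all remaining symbols, so this class also holds genes with a known place of action, such as Rab18 and Rab32. The classes were chosen with earlier results of these data known, and the differences between them depend on this split. The data were chromatin immunoprecipitation followed by sequencing (ChIP-seq) on whole wandering larvae of the third instar, with males and females pooled and age not given. There was 1 group of 3 biological replicates. All animals came from a transgenic strain, usp-GFP, in which usp carried eGFP at its C terminus. The immunoprecipitation used an antibody against GFP. Chromatin had been sonicated to fragments of 200 to 800 bp, and each peak call also used a control alignment, per the file headers. Whether the tagged copy was added to the untagged gene, and which promoter drove it, is not stated in the labels. Whole animals mix all larval tissues, so the tissue in which a site was occupied cannot be read from these data, and a site used in a small tissue and a weakly used site cannot be told apart.

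Rab proteins are small GTPases that mark the membranes of the cell. Exchange factors (GEFs) load a Rab with GTP on its own compartment, the active Rab then recruits effectors such as motors and tethers that move and dock vesicles, and GTPase-activating proteins (GAPs) switch it off. USP is the fly member of the RXR family of nuclear receptors and pairs with EcR to form the receptor of the steroid ecdysone. In wandering larvae, ecdysone is known to set off secretion of glue granules from the salivary glands and autophagy in the fat body, and both processes depend on membrane traffic.

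A gene was counted as bound when the summit of a peak fell between the ends of its body or within 1000 bp upstream. The summits came from the authors' IDR-thresholded list of 11195 peaks, where IDR (irreproducible discovery rate) is a measure of agreement between replicates. This list was derived from replicates 2 and 3 and did not include replicate 1, per the file headers. Peaks were ranked within a list by the signal the authors deposited, rank 1 being the highest. For the replicates, each own list was used down to its 11195 strongest peaks when genes were counted, and whole, with 30000 peaks, when the best rank of a gene was read. Sequencing depth cannot be read from the peak lists. A replicate was said to hold a summit, or to have one at that place, when one of its 11195 strongest peaks had its summit within 100 bp.

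Of the 33 Rab genes, 19 were bound, or 57.6%, where 35.8% of all protein-coding genes were. Because a longer gene offers more room for a summit, each Rab gene was also set beside the 200 other protein-coding genes nearest to it in length. Of these genes of like length, 35.2% were bound, which would correspond to 11.6 of 33. In the own lists of replicates 1, 2 and 3, 18, 17 and 18 Rab genes were bound, or 17.7 ± 0.577 (SD, n = 3). The shares at like length in these lists were 35.2%, 32.8% and 36.7%. The SD of the 3 counts shows how repeatably the same genes were called and not how far a set of genes of this size can lie from the background. The replicates called much the same genes, with 15 bound in every one of the 3 own lists and 14 bound in none. There was 1 group and no contrast, so these counts are descriptions and carry no p-value.

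The classes differed in count. Among the secretory Rab genes 6 of 9 were bound (66.7%), beside 42.2% of genes of like length, and the replicates gave 5.33 ± 1.15 (SD, n = 3). Among the endosomal Rab genes 7 of 8 were bound (87.5%), beside 39.9% at like length, and each of the 3 replicates gave 7. Among the other Rab genes 6 of 16 were bound (37.5%), beside 29% at like length and 5.33 ± 0.577 (SD, n = 3) in the replicates. By this rule the endosomal class stood farthest above its genes of like length and the other class nearest to them. The order of the first 2 classes was not kept for summits within 500 bp of a start site, which 5 of 9 secretory, 4 of 8 endosomal and 2 of 16 other members had. The other class also held the shortest genes, with a median length of 1322 bp against 3091 bp and 3444 bp in the secretory and endosomal classes. Across all 33, the bound genes had a median length of 3268 bp and the unbound ones of 1322 bp.

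**Figure D1:**
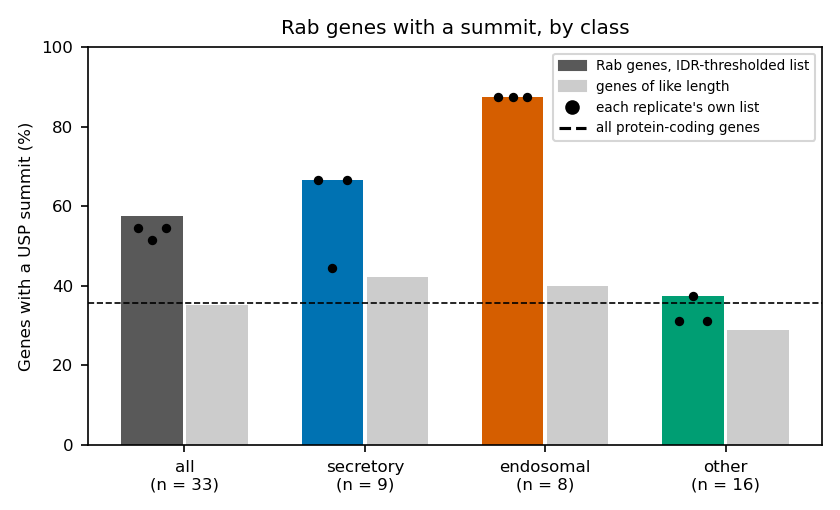
Percent of Rab genes with a USP summit in the body or the 1000 bp upstream (left bar of each pair), percent of protein-coding genes of like length (light grey bar), each replicate's own list (black points) and all protein-coding genes (dashed line), for all 33 Rab genes and by class. The endosomal bar stands at 87.5% with all 3 replicates on it, and the bar of the other class stands at 37.5%, close to the dashed line at 35.8%.

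A summit within 500 bp of a transcription start site was found at 11 of the 33 Rab genes, where 28.0% of all protein-coding genes and 28.2% of genes of like length had one. For promoter summits the 33 Rab genes were thus near the background, but the classes differed. A promoter summit was found at 5 of 9 secretory, 4 of 8 endosomal and 2 of 16 other members. Of the bound Rab genes 57.9% had such a promoter summit, against 78.1% of all bound protein-coding genes. Among the 5597 strongest peaks, 10 Rab genes had a summit in the body or upstream, where 21.9% of all protein-coding genes and 20.6% of genes of like length had one. These 10 were 4 secretory, 4 endosomal and 2 other members. The median best rank of the bound Rab genes was 5505, and that of all bound protein-coding genes was 4360. The summits at Rab genes thus ranked lower, at the median, than the best summits of all bound genes, and fewer of the bound Rab genes had one at the promoter.

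**Figure D2:**
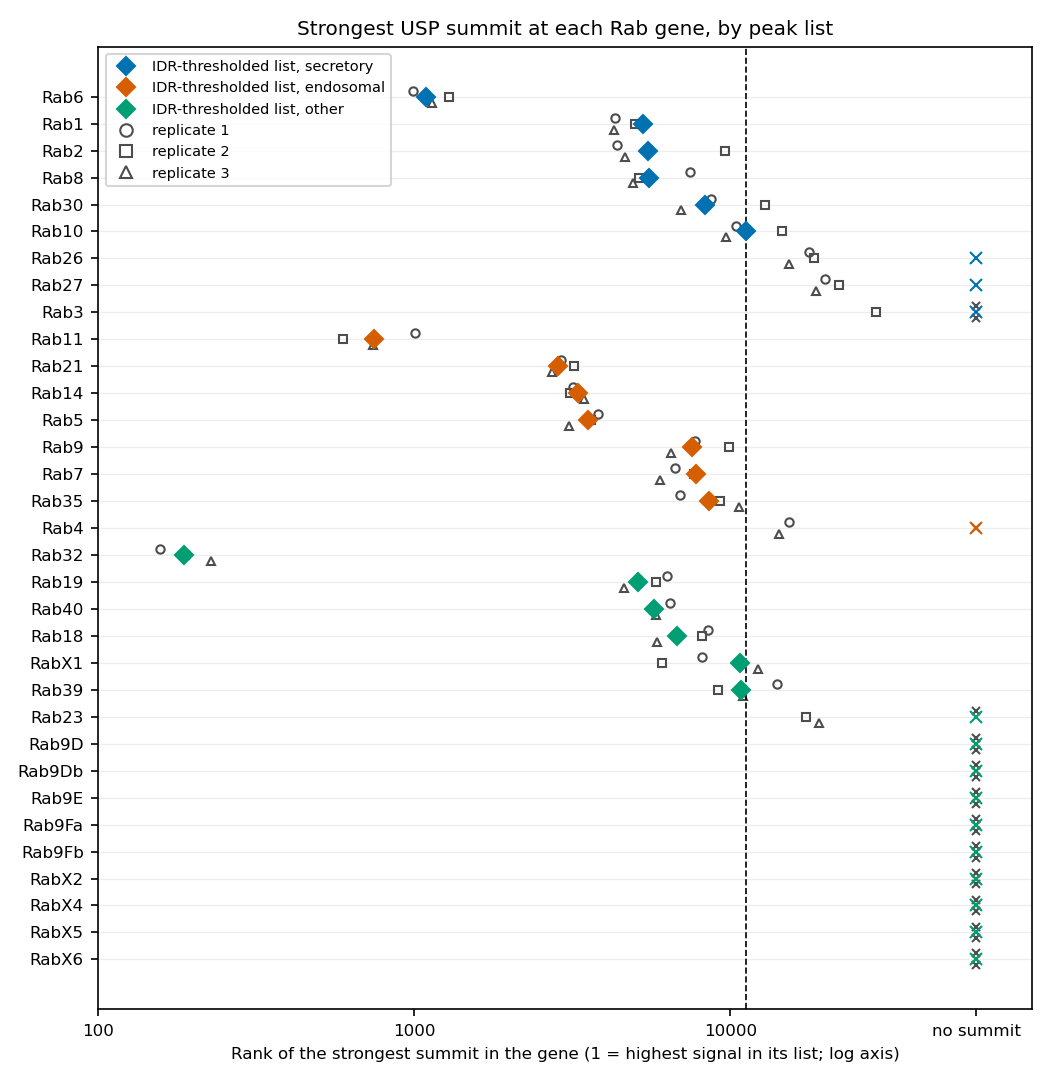
Rank of the strongest summit at each of the 33 Rab genes in the IDR-thresholded list (diamonds, coloured by class) and in the 3 replicates (open symbols) on a log axis, with the end of the IDR-thresholded list as a dashed line and crosses for genes with no summit. Rab32, Rab11 and Rab6 lie far to the left of the others in the IDR-thresholded list and in every replicate, and 9 members of the other class have no summit in any list.

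Of the secretory members, Rab6 had the strongest summit. Rab6, which acts in transport through and out of the Golgi, lay on 2L at 12107221 to 12109116 (FBgn0015797). Its single summit, at 12108964 in the 5′ UTR and 152 bp downstream of the start site, ranked 1090 in the IDR-thresholded list. It ranked 989, 1284 and 1136 in replicates 1, 2 and 3, so the replicates were close together. Only 15.1% of the 4990 bound protein-coding genes had a better best rank. The same summit lay within 1000 bp upstream of the neighbouring gene Phae1.

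Rab1 and Rab2 control traffic between the endoplasmic reticulum and the Golgi. Rab1 (FBgn0285937, 3R, 21266029 to 21269060) had 1 summit at 21269129, which was 69 bp upstream of its start site and ranked 5270. At that place the replicates ranked 5283, 10058 and 4289, so replicate 2 placed it lower than the others. The strongest summit counted for Rab1 in replicates 1 and 2 was another one farther upstream, at 21270033 with rank 4326 and at 21270021 with rank 5006. In the counted region of Rab1, which ended shortly beyond those positions, the IDR-thresholded list held only the summit at 21269129. Rab2 had 2 summits on 2R, one in the 5′ UTR 58 bp downstream of the start site with rank 5466 and one in the intron at 258 bp with rank 8183. For the first of these replicates 1, 2 and 3 gave ranks 4375, 9588 and 4634, again with replicate 2 apart, and the second had no partner in replicate 1. The summit of Rab1 was also counted for its neighbour Idi, and both summits of Rab2 for Mob4, so these summits cannot be assigned to one gene of the pair.

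The Rab proteins of polarised exocytosis, Rab8 and Rab10, differed in rank. Rab8 had a summit in the 5′ UTR, 54 bp from the start site, with rank 5505 and with ranks 7457, 5141 and 4931 in the replicates. The summit of Rab10 lay in an intron 600 bp downstream of the start site and ranked 11175, close to the end of the list. It was counted for the neighbour CG17068 as well. Replicates 1 and 3 ranked that place 10407 and 9708, and replicate 2 had no summit there among its strongest 11195. Rab30, a Golgi Rab, had a summit 62 bp upstream of its start site with rank 8304, found in replicates 1 and 3 at ranks 8704 and 6993 and not among the strongest 11195 of replicate 2. That summit was 53 bp from the start site of Caper, which is nearer than Rab30 itself. Rab10 and Rab30 were the secretory members that replicate 2 lost, which is why its own list gave 4 bound secretory genes where replicates 1 and 3 gave 6.

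The secretory members without a summit were Rab3, Rab26 and Rab27, all known from regulated exocytosis. Rab3, which works at synaptic vesicles, had no summit in the pooled list, and only replicate 2 placed one there, at rank 28852 of 30000. Rab27, known for the docking of secretory granules in mammals, had its best summit in the pooled list at rank 19141 and in the replicates at 19875, 21999 and 18658. Rab26, linked to secretory granules and synaptic vesicles, had ranks of 15643 in the pooled list and 17760, 18425 and 15356 in the replicates. The 3 genes were not short, with lengths of 3091 to 16254 bp, and 58.5% of the genes of like length to Rab26 were bound. The nearest summit of the IDR-thresholded list lay 726 bp from the counted region of Rab27, 988 bp from that of Rab3 and 7814 bp from that of Rab26.

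Of the endosomal members, Rab11 had the strongest summits. Rab11, the Rab of recycling endosomes, which is also needed for the maturation of salivary glue granules, lay on 3R at 21111408 to 21116146 (FBgn0015790). Its stronger summit was at 21112099 in the first intron, 691 bp downstream of its only start site, and ranked 744. The replicates ranked it 1005, 595 and 741. A second summit at 21112923, 1515 bp from the start site in the same intron, ranked 4366, and 4156, 3221 and 5692 in the replicates. The 2 summits lay in a single peak interval of 2052 bp and in the body of no other gene, and all 3 replicates placed both of them within 100 bp. The 121 bases centred on the stronger summit are given because it was the strongest endosomal site. They were read from the plus strand of dm6, chr3R:21112039-21112159, and held none of the motifs searched below.

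Rab11: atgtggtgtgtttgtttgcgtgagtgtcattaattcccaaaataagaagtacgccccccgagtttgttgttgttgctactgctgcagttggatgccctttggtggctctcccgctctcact

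Rab5 and Rab21 act on early endosomes. Rab5, which drives the fusion of early endosomes, had 4 summits, the most of any Rab gene, and 6 start sites (FBgn0014010, 2L, 2359142 to 2365273). The strongest, at 2364384 in the 5′ UTR and 337 bp from a start site, ranked 3539, and ranked 3811, 3632 and 3090 in the replicates. This strongest summit was also counted for the neighbour Axud1. The others ranked 7786, 8732 and 9759. Only the first of these 3 weaker summits was found by all replicates. The last, 57 bp from the start site of the neighbour Axud1, had a partner within 100 bp in replicate 1 alone. Replicate 3 had a summit just beyond that reach, at -230 bp from the start site farthest upstream, where this summit lay at -129 bp. Rab21, which is known for traffic of integrins, lay on X at 23012140 to 23013409 (FBgn0039966). Its summit at 23013636 ranked 2845, with 2906, 3199 and 2732 in the replicates. This summit lay 227 bp upstream of Rab21 but inside the body of Coa7 and only 141 bp from the start site of Coa7, so its assignment to Rab21 rests on the counting rule.

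Rab14, which acts between early endosomes, the Golgi and phagosomes, had 2 summits (FBgn0015791, 2L, 14355145 to 14358764). The stronger lay at 14356440 in an intron, 601 bp upstream of the nearest of its 3 start sites, and ranked 3282. It also lay in the body of lncRNA:CR44851. The replicates placed it at ranks 3167, 3096 and 3443, which is a narrow spread. The other, at 14355358 in the 5′ UTR, ranked 4539 and also lay upstream of the neighbour l(2)34Fd. The intronic window, shown because it lay between alternative start sites and was held by all 3 replicates, covers chr2L:14356380-14356500 on the plus strand of dm6, with a GATA match, TGATAA, in capitals.

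Rab14: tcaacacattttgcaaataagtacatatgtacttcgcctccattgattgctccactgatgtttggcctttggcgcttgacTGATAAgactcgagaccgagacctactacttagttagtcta

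Rab7 and Rab9 act on late endosomes. Rab7, which brings late endosomes and autophagosomes to the lysosome, had 3 summits within a single interval of 1019 bp, with ranks of 7769, 8083 and 9091. Replicates 1 and 3 held all of them, but replicate 2 held only the one in the 5′ UTR, 49 bp from the start site. Rab9, known for return of receptors to the trans-Golgi network, had a summit 1797 bp into its intron with rank 7536 and with ranks of 7708, 9884 and 6468 in the replicates. Rab35, which sorts cargo back to the plasma membrane, had a summit in the 5′ UTR at 659 bp with rank 8562. Its replicate ranks were 6901, 9260 and 10673. The late endosomal members and Rab35 thus ranked below Rab11, Rab21, Rab14 and Rab5, both in the IDR-thresholded list and in every replicate.

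Rab4, the Rab of fast recycling, was the only endosomal member without a summit. It had none in the pooled list, and the best ranks in replicates 1 and 3 were 15328 and 14260, with no summit in replicate 2. The nearest summit of the IDR-thresholded list was 3828 bp from its counted region. Its length of 1518 bp was below the median of the class, and 29.5% of the genes of like length to it were bound.

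**Figure D3:**
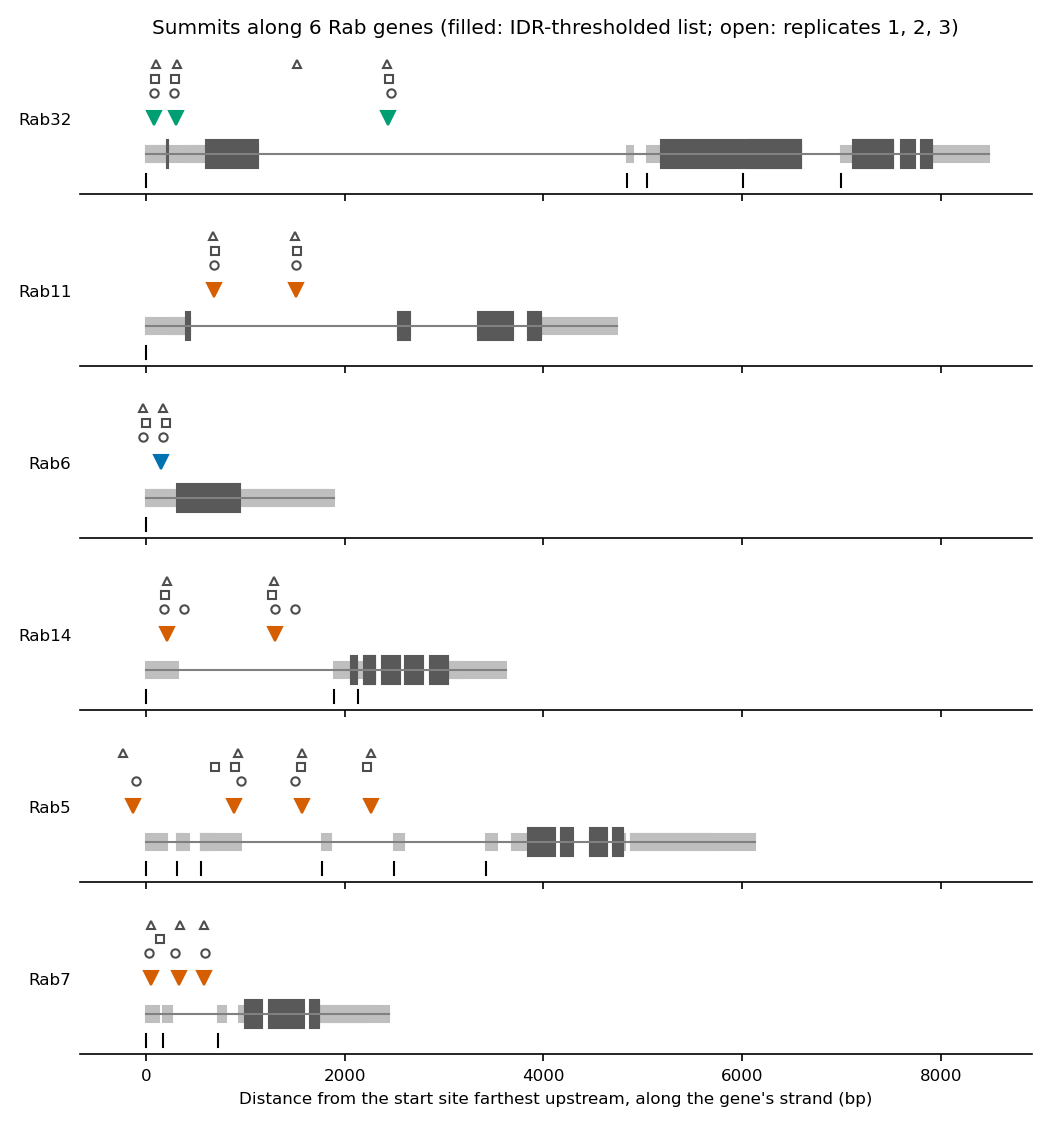
Summits along Rab32, Rab11, Rab6, Rab14, Rab5 and Rab7, with distance from the start site farthest upstream in bp, exons as boxes (coding parts dark), start sites as ticks, filled triangles for the IDR-thresholded list and open circles, squares and triangles for replicates 1, 2 and 3. The replicates sit under each other at both Rab11 summits and at all 3 Rab32 summits, while at Rab7 replicate 2 has a summit only near the start.

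The strongest summit of any Rab gene was at Rab32. Rab32 (FBgn0002567, 2R, 9177864 to 9186342), known in flies as lightoid, is needed for the pigment granules of the eye, which are organelles related to lysosomes. It had 3 summits, with ranks of 186, 530 and 559. The summit of rank 186 lay at 9186042 in the 5′ UTR, 300 bp downstream of a start site, and the replicates ranked it 157, 188 and 227. The summit of rank 559 lay at 9186262 in the same 5′ UTR, 80 bp from the start site, with 460, 570 and 490 in the replicates. The summit of rank 530 lay at 9183906 in an intron, 2407 bp upstream of the nearest start site, with 702, 471 and 486 in the replicates. It also lay in the body of lncRNA:CR44284. All 3 summits of Rab32 were found by every replicate, and only 2.26% of all bound protein-coding genes had a better best rank. Rab32 was also the longest bound Rab gene at 8479 bp, and 60.5% of the genes of like length to it were bound.

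Of the remaining bound members of the other class, Rab19 ranked best. Rab19 (FBgn0015793, 3L, 8297018 to 8298506) had a summit at 8297074 in its 5′ UTR, 56 bp from the start site, with rank 5117 and with 6283, 5831 and 4615 in the replicates. Rab40, whose protein carries a SOCS box that recruits a ubiquitin ligase, had a summit 535 bp upstream with rank 5743, and with 6438, 5714 and 5830 in the replicates. This summit lay in the body of CG42258, 119 bp from the nearest start site of that gene. Rab18, which is found on lipid droplets and the endoplasmic reticulum, had a summit 873 bp upstream with rank 6767, and with 8462, 8137 and 5875 in the replicates. That summit lay in the body of RpL35, a gene for a ribosomal protein, and 49 bp from its start site. At Rab40 and Rab18 the site was therefore nearer to the promoter of a neighbour than to that of the Rab gene.

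RabX1 and Rab39 stood at the end of the list. RabX1 had an intronic summit 1075 bp from its start site with rank 10752, found in replicates 1 and 2 at ranks 9207 and 6058 and not among the strongest 11195 of replicate 3, whose best rank at the gene was 12180. Rab39 had one at 580 bp with rank 10810, found in replicates 2 and 3 at ranks 9124 and 10966. Replicate 1 had a summit there at rank 14001, below its strongest 11195. With Rab10 at 11175 these were the members just inside the end of the list at 11195. The members just outside it, by their rank in the pooled list, were Rab26 at 15643, Rab23 at 17851 and Rab27 at 19141.

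The other class held 10 unbound genes. Rab23, known in flies for planar polarity of the wing, had weak summits in replicates 2 and 3, at ranks 17334 and 19117, and none in replicate 1. The other 9 were Rab9D, Rab9Db, Rab9E, Rab9Fa, Rab9Fb, RabX2, RabX4, RabX5 and RabX6, and none had a summit in the IDR-thresholded list, the pooled list or any whole list of a replicate. RabX5 came nearest, with a summit of the IDR-thresholded list 204 bp from its counted region and a peak interval that reached into it. For the other 8 of these genes that distance ran from 1130 bp at Rab9D to 42491 bp at RabX2.

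Several of these genes are near copies of one another on X. The gene bodies of Rab9D, Rab9Db, Rab9E and Rab9Fa were 96.0% to 99.0% identical in pairwise alignment, and Rab9Fb and RabX2 were 74.9% to 80.2% identical to them. Reads from such copies can fail to map to one place, so the share of 31-base words that occur again elsewhere in the genome was counted for each Rab gene with its 1000 bp upstream. It was 44.3% for Rab9D, 52.4% for Rab9Db, 57.7% for Rab9E, 56.1% for Rab9Fa, 19.3% for RabX2 and 3.35% for Rab9Fb. At the bound members it was at most 0.879%, at Rab10. Without the 5 genes above 10%, 19 of 28 Rab genes were bound (67.9%, beside 38.4% at like length), and 6 of the 11 others (54.5%, beside 34.2%). How the authors treated reads that map to several places is not given in the sources used here, and the part of repeated sequence in the missing summits was not tested. RabX4, RabX5 and RabX6 had no summit in any list with repeated words at 0.457% or less.

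The 33 genes were spread over 5 chromosome arms. All 5 Rab genes on 2L were bound, where 32.4% of the protein-coding genes of that arm were. On 2R 3 of 5 were bound, beside 36.9% of the protein-coding genes of the arm, and on 3R 3 of 5, beside 35.2%. On 3L 2 of 5 were bound, which is near the 36.0% of that arm. On X 6 of 13 were bound, where 40.2% of protein-coding genes were, and 6 of the 7 unbound ones there were the related genes Rab9D, Rab9Db, Rab9E, Rab9Fa, Rab9Fb and RabX2. These are not independent members, since they share sequence.

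The 19 bound genes held 29 summits, of which 14 were endosomal, 7 secretory and 8 of the other class. By place, 13 lay in introns, 10 in 5′ UTRs and 6 upstream, and none lay in coding sequence or a 3′ UTR. The median distance from the nearest start site of the Rab gene was 227 bp, and 18 of the 29 summits were within 500 bp. Of the 29, 20 had a partner within 100 bp among the strongest peaks of all 3 replicates, where 71.2% of all summits did. For 24 of the 29 the nearest start site of any protein-coding gene was that of the Rab gene itself. However, 19 of the 29 also lay in the body or upstream region of another gene and were counted for that gene as well. These were all 7 secretory summits, 8 of the 14 endosomal ones and 4 of the 8 of the other class. No secretory summit could thus be assigned to the Rab gene alone.

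**Figure D4:**
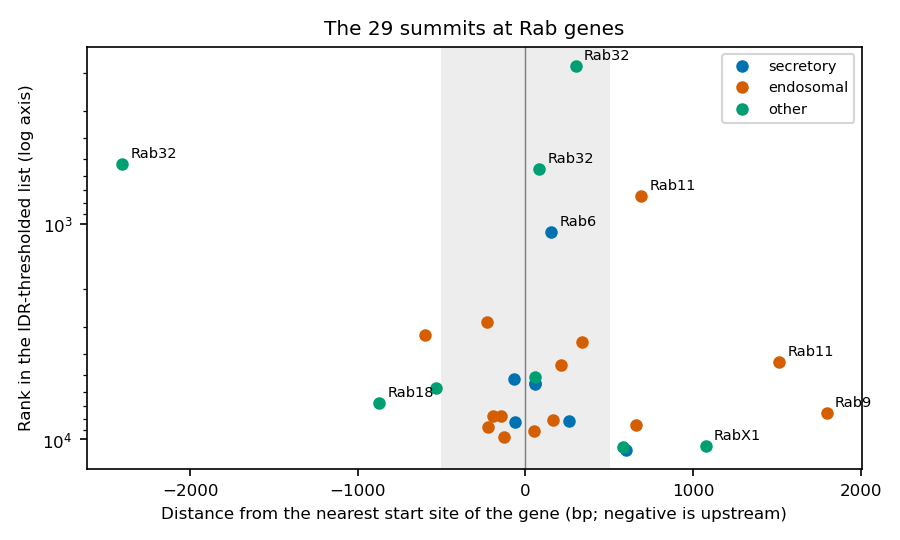
Rank in the IDR-thresholded list (log axis, strongest at the top) of each of the 29 summits at Rab genes against the distance in bp from the nearest start site of that gene, coloured by class, with 500 bp on either side shaded. Of the 29 summits 18 lie in the shaded zone, while both Rab11 summits and the Rab32 summit at 2407 bp upstream lie outside it.

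Sequence motifs were searched on both strands within 100 bp of the 29 summits, all 11195 summits and the windows of the same length 1000 bp away. The motifs were the ecdysone response element (EcRE) palindrome, the receptor hexamer AGGTCA, the DNA replication-related element (DRE) TATCGATA, the E-box CACGTG, the GAGA repeat GAGAGAG, the AP-1 site TGANTCA and the GATA site TGATAA. The palindrome is built from hexamers of this kind, so a match of the first can hold a match of the second, and matches of different motifs can overlap at single bases. A match describes the letters only and does not show that the protein named with the motif was there.

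No summit at a Rab gene had the EcRE palindrome, nor a match with 1 mismatch, which 0.447% and 3.74% of all summits had. The hexamer AGGTCA was found at 2 summits, those of Rab19 and Rab40, or 6.90% beside 6.24% of all summits and 5.32% of the windows 1000 bp away. The E-box was at 3.45% beside 3.06% of all summits, the GAGA repeat at 6.90% beside 9.22%, and the AP-1 site at 10.3% beside 6.48%. With 29 summits, 1 summit is worth 3.45%, so within 100 bp these shares were within 1 or 2 summits of those over all summits. Within 200 bp the AP-1 site was near 9 of the 29 summits (31%), beside 12.3% of all summits and 10% of the windows 1000 bp away. The GATA site was near 10 summits of 8 genes, Rab5, Rab7, Rab9, Rab14, Rab32, Rab35, Rab39 and RabX1, or 34.5% beside 20% of all summits and 13.6% of the windows away from them. Within 50 bp that order turned, with 6.90% of Rab summits and 11.4% of all summits.

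The DRE was the motif with the highest ratio to the background. It was found at 4 of 29 summits (13.8%), beside 1.62% of all summits and 0.581% of the windows 1000 bp away. The DRE is known from the promoters of housekeeping and replication genes in flies. The 4 summits, at Rab7, Rab8, Rab19 and Rab30, all lay within 500 bp of the start site, so they were also set beside promoters. Those at Rab7, Rab8 and Rab30 were counted as well for the neighbours Epp, Usp32 and Caper, and that at Rab19 for no other gene. Of the 18 promoter summits of Rab genes 22.2% had a DRE, against 3.57% of all 4427 promoter summits and 6.45% of the windows around 19252 start sites of protein-coding genes. The count is small, and within 50 bp only 1 Rab summit had the DRE. The 5 matches are printed as 30 bases of the plus strand of dm6, because they carry this result, with the DRE in capitals. They are at chr2L:7032635-7032664 (Rab30), chr3L:19871078-19871107 (Rab8), chr3R:23992980-23993009 (Rab7), chr3L:8296987-8297016 (Rab19, upstream) and chr3L:8297111-8297140 (Rab19, downstream).
Rab30: gtttttctcggTATCGATAgatcgacgttt
Rab8: gcgccgtcgtcTATCGATAgcttatcgtac
Rab7: cacgactgcacTATCGATAaccagtactga
Rab19, upstream: gtaaaatggaaTATCGATAtatgagcttcg
Rab19, downstream: ttttacccctaTATCGATAggtcaactatc
The last base of the DRE in the downstream match of Rab19, at 8297129, is also the first base of its AGGTCA hexamer. Measured from the summit along the plus strand, the matches lay at offsets of -72 to 69 bp, with the nearest, at -18 bp, at Rab30.

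**Figure D5:**
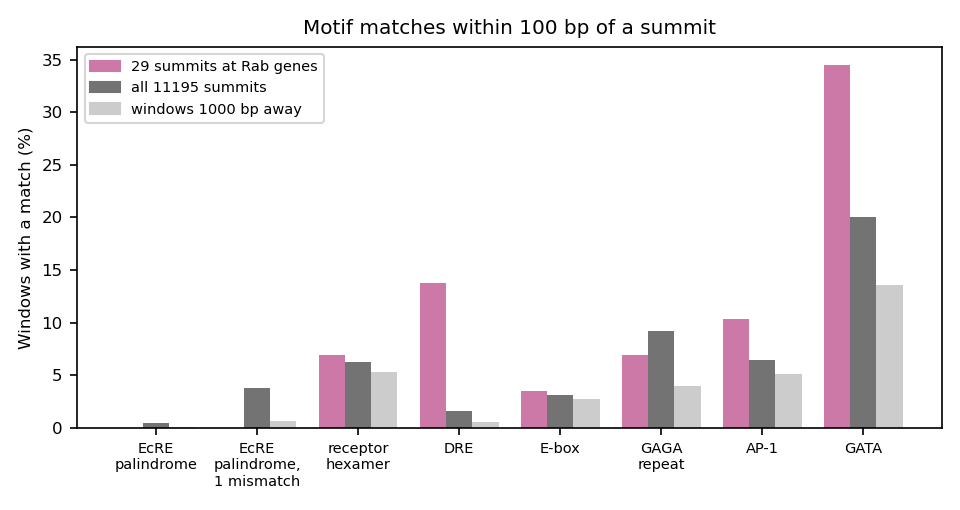
Percent of windows with a match within 100 bp for the 29 summits at Rab genes, all 11195 summits and windows 1000 bp away, by motif. The gap between the Rab bar and that of all summits is widest for GATA (34.5% beside 20%) and the DRE (13.8% beside 1.62%), smaller for AP-1 (10.3% beside 6.48%), and the Rab bar is empty for the EcRE palindrome.

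Genes that act with Rab proteins and 2 other families of small GTPases were counted in the same way. Of 24 genes of the Rab cycle (GEFs, GAPs and carriers of Rab proteins) 14 were bound (58.3%, beside 46.8% at like length), and the replicates gave 13.0 ± 1.73 (SD, n = 3). The best ranked were Evi5, a protein with a Rab GAP domain, at rank 233 with 8 summits, Crag, a DENN-domain GEF, at 1164, and sky, the Rab35 GAP skywalker, at 1451 with 14 summits. Of 24 genes listed as Rab effectors 15 were bound (62.5%, beside 50.1%), with 15.7 ± 2.08 (SD, n = 3) in the replicates. Arl8, an Arf-like GTPase, was among the bound genes of this list and was counted again in the Arf family below. The leading effectors were Mical, an enzyme that oxidises actin, at rank 511, the golgin Gmap at 1305 and the synaptotagmin-like btsz at 1568. The list of 20 genes named tethers held subunits of tethering complexes, and also Vps26, Vps29 and Vps35, which belong to the cargo-sorting retromer complex. Of the 20 genes 7 were bound (35.0%, beside 40.9%), with 6.67 ± 1.53 (SD, n = 3), and Vps26 was among the bound ones. The best ranked were the HOPS subunit Vps39 at 1460 and the exocyst subunits Sec6 at 1552 and Sec3 at 5094. Of these 3 lists, only the tethers were below their genes of like length.

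The shares of the Arf and Ras families were also above those at like length. In the Arf family, which recruits vesicle coats, 6 of 12 were bound (50%, beside 29.8%), with 6 ± 0 (SD, n = 3). Its best ranked genes were the COPII GTPase Sar1 at 1891, the Golgi GTPase Arl1 at 1909 and Arf6 at 3029. In the Ras family 8 of 14 were bound (57.1%, beside 46.7%), with 8.0 ± 1.0 (SD, n = 3), led by Ras85D at 1010, Rala, a regulator of the exocyst, at 1214 and Rgk2 at 1856. A share above that at like length was thus found in both of these families as well.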

How the data were processed

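ChIP-seq was done on 3 biological replicates of 1 group. The authors deposited peak lists on dm6 as narrowPeak intervals with a summit and a signal, the score of each peak. Per the file headers, replicate lists were called against a control alignment, and the pooled and IDR-thresholded lists derive from replicates 2 and 3. The 11195 IDR-thresholded peaks were those of highest signal in the pooled list. The pooled and replicate lists held 30000 peaks each. Which aligner, caller and IDR threshold were used is not given in the sources used here. Read depth is unknown, so there are no counting intervals. The labels name a biological sample for each replicate and no batch.

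Gene models came from Ensembl release 115 (BDGP6.54) and sequence from the RefSeq copy of release 6. In it 30540 of 30593 start codons (99.8%) read ATG, and all 11195 peaks lay inside the arms. Counts used python 3.11.15, numpy 2.4.6 and biopython 1.88 (pairwise alignment), and plots used matplotlib 3.10.9. The counting was tested on simulated data. Rab3-GEF, Rab3-GAP and Rab3GAP1, which fit the letters of the rule but are not Rab GTPases, were left out. The members, classes and gene lists were chosen with earlier results of these data known. Every member was named, the 8 best ranked with positions, and the 3 best ranked genes of each other list. Of the listed symbols, 2 of the Rab cycle and 3 effectors were found through synonyms, DENND3, DENND1A, Rbpn and RILPL were not found, and Giant was dropped because its synonym leads to the gene gt. Those 3 Rab3 regulators, of which Rab3GAP1 was bound, were kept in the Rab cycle list. A further gene list is not reported here. No chance test was run.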

Additional observations from a re-analysis of the deposited data

How the results depend on the processing

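Of 62 alternative counts of Rab genes and their classes, 53 stayed within 1.5 times the reported count. Against 19 bound Rab genes, summits within 500 bp of a start site gave 11 Rab genes, with 4 endosomal and 2 other members. The 5597 strongest peaks gave 10 Rab genes, again with 4 endosomal and 2 other members. Summits held by all replicates within 50 bp gave 11 Rab genes, beside 23.8% at like length, with 2 secretory members. The body alone gave 14 Rab genes and 5000 bp upstream gave 23, beside 21.7% and 48.0% at like length. The nearest start site gave 16, beside 31.5%. Setting aside each replicate in turn kept only the summits of the IDR-thresholded list that both remaining replicates held. It gave 16 to 17 Rab genes, 4 to 6 secretory, 7 endosomal and 4 to 5 other members. The list itself was not called again without the replicate set aside, so these are counts under a stricter filter. A reach of 1000 bp around start sites gave 17 Rab genes where 500 bp gave 11, with no background share computed at 1000 bp. The percent bound was 67.9 without the members of repeated sequence, an alternative chosen after seeing the data. Choosing 50 or 400 genes of like length, or 20 bins of length, moved the share at like length to between 33.9% and 35.5%. The best rank of each bound Rab gene in each replicate was also set beside its best rank in the IDR-thresholded list. Of these 57 gaps, 36 were smaller than the SD of the gene's replicate ranks and 21 were larger. That SD was taken from the same ranks that were judged, so these counts cannot show how stable the ranks were. No paired analysis was possible because there was only 1 group. The lists end at a fixed number of peaks and the depth is unknown, so a gene without a summit is not shown to be free of USP.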
